A study of Mus musculus with 9 samples.

Results

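The Hippo pathway effectors and YAP targets examined here are 10 genes, out of 18194 genes named on the array. They are Yap1 and Wwtr1, which encode the coactivators YAP and TAZ, the TEAD factor genes Tead1, Tead2 and Tead4, the target genes Ccn1, Ccn2 and Ankrd1, and the angiomotin-like genes Amotl1 and Amotl2. Every probe set whose annotated gene symbol is one of these 10 was taken, which gave 21 of the 45101 probe sets. All 10 genes had at least 1 probe set.

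Each of 3 groups had 3 arrays, and all cells were of the mouse embryonic stem (ES) line Ainv15 with a doxycycline-inducible, V5-tagged Cdx2 construct. Cdx2 and FGF cultures were at day 5 and had been given retinoic acid (1 µM) and the hedgehog agonist SAG (0.5 µM) from day 2, and later basic FGF at 100 ng/ml and doxycycline at 2 µg/ml, which was present on day 3 for 6 to 8 hours. Motor neuron cultures were at day 5 and had received retinoic acid and the agonist without doxycycline or FGF. ES cells were at day 0, untreated, and had been kept on mitomycin-C-treated fibroblasts with LIF. Cdx2 induction and FGF came together, so their parts cannot be told apart. The protocol also lists 100 nM retinoic acid and agonist given with FGF, without naming the cultures that received them, so a difference in dose cannot be told apart from the rest. All cells are of 1 engineered line, and nothing in the labels says that the 3 arrays of a group came from separate cultures; p-values therefore measure only how far arrays spread, which may be technical.

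The Hippo pathway is a kinase cascade, in which MST kinases activate LATS kinases and LATS kinases phosphorylate YAP and TAZ. Phosphorylated YAP and TAZ are held in the cytoplasm or degraded. Unphosphorylated, they enter the nucleus and activate genes through TEAD factors, which bind DNA. The cascade answers to cell density, cell shape and actin tension, and mRNA levels do not report on phosphorylation or location of the proteins. In the early mouse embryo, TEAD4 with YAP activates Cdx2 in the trophectoderm, and in the neural tube YAP and TEAD factors are known for keeping progenitors dividing.

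TEAD factors recognise the letters GGAATG, or CATTCC on the other strand. The 250 bases before the start of each gene were read from RefSeq windows (GRCm38.p6), which were at hand for 7 members: Yap1, Wwtr1, Tead2, Ccn1, Ankrd1, Amotl1 and Amotl2. The letters occurred in 5 of these 7, namely Yap1, Wwtr1, Ccn1, Ankrd1 and Amotl2. Over all genes with such a window, 14.4% of 27025 held them. The AP-1 letters TGANTCA, searched on both strands, and the CArG box bound by SRF were in 0 of the 7, against 7.82% and 1.62% of all genes. The members are textbook genes of this pathway, and a match is a description of these windows only. The windows of 3 YAP target genes are shown with the TEAD letters in capitals, because all 3 hold the letters and their expression differed: Ccn1 rose, Ankrd1 was not detected at day 5, and Amotl2 was not called between the day 5 groups. That of Ccn1 is chr3:145649986-145650235 on the minus strand, with its match starting at position -103 from the gene start. Ankrd1 is at chr19:36119845-36120094 on the minus strand, with matches at positions -210 and -123. Amotl2 is at chr9:102717554-102717803 on the plus strand, with its match at position -65.
Ccn1: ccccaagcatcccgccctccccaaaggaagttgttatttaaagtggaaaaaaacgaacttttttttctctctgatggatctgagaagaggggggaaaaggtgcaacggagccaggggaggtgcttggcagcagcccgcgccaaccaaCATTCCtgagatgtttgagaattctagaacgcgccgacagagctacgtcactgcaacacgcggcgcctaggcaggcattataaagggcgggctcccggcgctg
Ankrd1: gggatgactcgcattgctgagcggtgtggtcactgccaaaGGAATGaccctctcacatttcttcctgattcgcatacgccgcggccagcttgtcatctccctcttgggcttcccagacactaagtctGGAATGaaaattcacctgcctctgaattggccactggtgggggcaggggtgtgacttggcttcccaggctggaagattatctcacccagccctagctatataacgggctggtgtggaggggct
Amotl2: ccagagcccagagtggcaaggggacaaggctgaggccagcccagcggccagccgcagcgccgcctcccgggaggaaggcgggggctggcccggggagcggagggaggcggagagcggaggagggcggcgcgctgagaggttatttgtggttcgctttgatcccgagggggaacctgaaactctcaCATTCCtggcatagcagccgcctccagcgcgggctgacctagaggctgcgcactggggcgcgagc

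Levels are log2 expression values per probe set, which ran from a floor of 2.17 to 16.12 over the 9 arrays. A level of 4 was taken as the lower limit of detection, and genes over 4 on at least 3 arrays were tested. A gene was represented by its probe set with the highest mean. Differences are log2 differences of group means, and a call required both an adjusted p under 0.05 and a difference of at least 1 in size. Of the members, 8 of 10 were tested, each with levels over 4 on all 9 arrays, while Tead4 and Ankrd1 passed 4 on 2 arrays each and were not tested.

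The induced gene Cdx2 read 8.27, 8.99 and 8.59 with Cdx2 and FGF, against 2.17, 2.17 and 2.24 for motor neuron cultures and 2.17 on each ES array. Pluripotency markers were over 4 on all ES arrays for 8 of 8 genes and under 4 on all day 5 arrays for 8 of 8. Of 10 neuron markers, 10 were over 4 on all arrays of both day 5 groups and 8 on all ES arrays. Summed neuron markers, as log2, spanned 13.36 to 13.54 with Cdx2 and FGF, against 16.28 to 16.69 for motor neuron cultures and 13.37 to 13.69 for ES cells. The sum for ES cells was led by Stmn2, which averaged 9.77 with Cdx2 and FGF and 13.07 in ES cells. Gene by gene, 6 of the 10 neuron markers were called higher in Cdx2 and FGF cultures than in ES cells, among them Elavl4 (by 5.09) and Isl1 (by 4.95), and 1, Stmn2, lower, with a median difference of 2.09 (1.52 with values under 4 raised to 4). Over all tested genes 25.4% were called higher in that comparison and 27.2% lower. Dcx and Mnx1 were under 4 on all ES arrays and could only come out higher there. The motor neuron genes Isl1 and Mnx1 were detected in the Cdx2 and FGF cultures, at 9.55 to 9.88 and 6.19 to 6.72, against 12.36 to 12.77 and 9.36 to 10.64 in motor neuron cultures. ES arrays differed from the others in RNA amplification controls: for Actb, the 3′ control probe set minus the 5′ one was -0.1 to -0.01 with Cdx2 and FGF, against -0.05 to -0.03 for motor neuron cultures and 1.87 to 2.3 for ES cells. For Tfrc the same difference was -1.74 to -1.43 with Cdx2 and FGF, against -1.57 to -1.39 for motor neuron cultures and 5.59 to 6.86 for ES cells. An 18S ribosomal RNA control read 15.32 to 15.42 with Cdx2 and FGF, against 15.45 to 15.51 for motor neuron cultures and 5.86 to 6.6 for ES cells. In every comparison with ES cells, this split of the controls and the cell state cannot be told apart. The median SD over arrays was 0.114 in the Cdx2 and FGF group, 0.149 in the motor neuron group and 0.377 in the ES group.

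**Figure D1:**
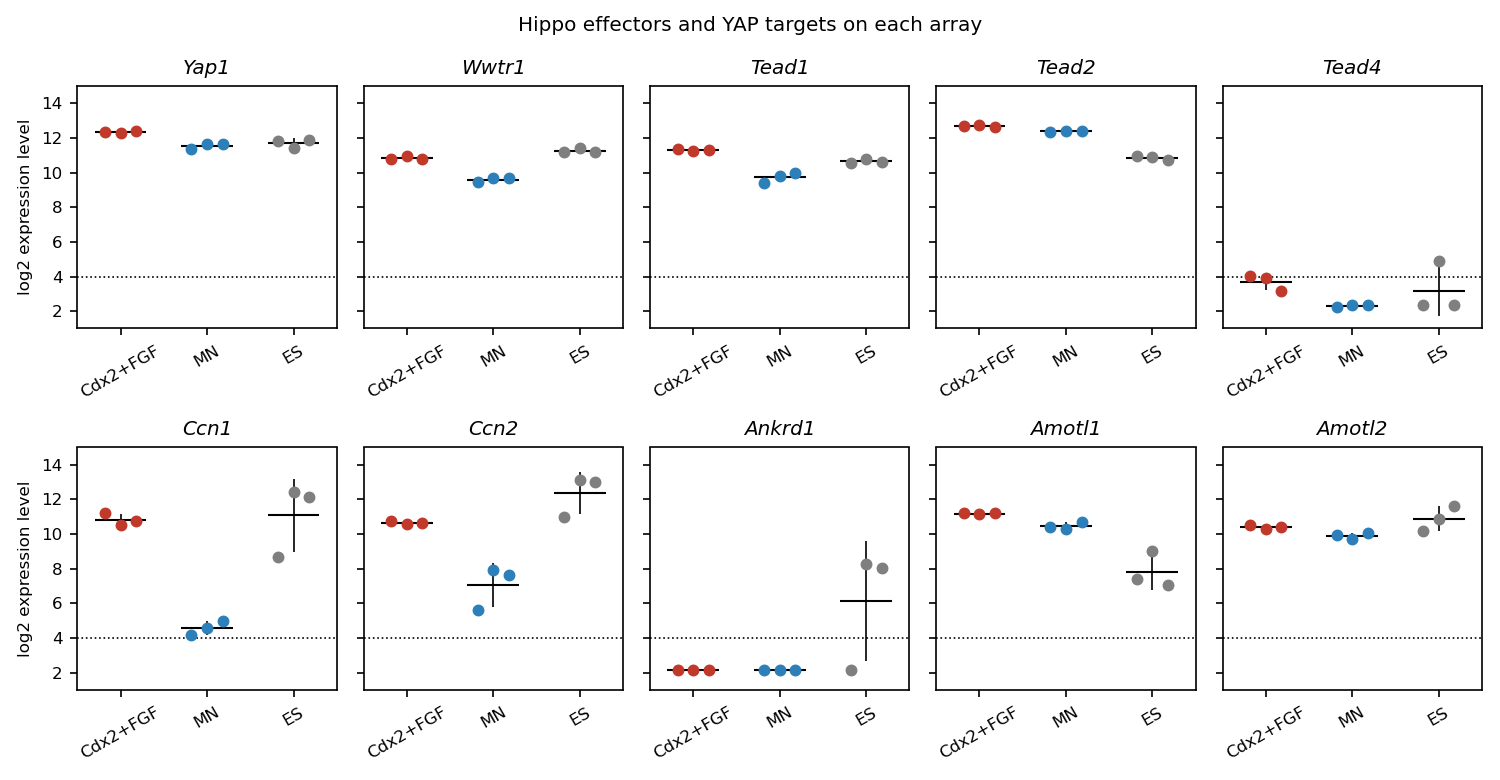
Log2 expression level (vertical axis) of each member's representing probe set on the 3 arrays of the Cdx2 and FGF (red), motor neuron (MN, blue) and ES (grey) groups; points are arrays, horizontal bars means, vertical bars ± 1 SD and the dotted line the detection limit of 4. Ccn1 stood at 4.15 to 4.96 in motor neuron cultures, below every array of the other groups, and Ankrd1 was at the floor on 7 of 9 arrays.

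In Cdx2 and FGF cultures, compared with motor neuron cultures, the target genes Ccn1 and Ccn2 rose 77.9-fold and 12.2-fold. Among the effectors, Wwtr1 and Tead1 rose 2.37-fold and 2.92-fold. No tested member was called lower. In such bulk samples, fewer cells of a type and less RNA per cell cannot be told apart. Of the 8 tested members 4 were called higher and 0 lower, where 11.2% of all 10912 tested genes were called higher, 8.61% lower and 19.8% either way. The median difference was 1.02 over the 8 members and 0.041 over all tested genes. All 3 Cdx2 and FGF arrays lay above all 3 motor neuron arrays for 8 of the 8 members, as they did for 35.1% of all tested genes, with 27.6% lying wholly below.

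Yap1 encodes the coactivator for which the pathway is best known. It read 12.33, 12.3 and 12.39 with Cdx2 and FGF, against 11.37, 11.64 and 11.68 for motor neuron cultures and 11.84, 11.41 and 11.91 for ES cells. The Cdx2 and FGF arrays lay above all others, and the other groups overlapped. The difference from motor neuron cultures was 0.78 (SE 0.15, 95% interval 0.45 to 1.1, adjusted p = 0.00316), under the size of 1 that a call required. A second Yap1 probe set read 9.83, 9.96 and 9.73 with Cdx2 and FGF, against 7.83, 8.66 and 8.6 for motor neuron cultures and 6.15, 5.66 and 8.66 for ES cells. Its difference between the day 5 groups was 1.47, with an interval of -0.03 to 2.97 and adjusted p = 0.133. The fit shares its spread over all 3 groups. For this probe set the SD was 1.61 in ES cells, against 0.116 with Cdx2 and FGF and 0.461 in motor neuron cultures.

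Wwtr1 encodes TAZ, the paralog of YAP. It read 10.78, 10.95 and 10.78 with Cdx2 and FGF, against 9.43, 9.67 and 9.68 for motor neuron cultures and 11.17, 11.43 and 11.2 for ES cells. No groups overlapped on this probe set, and the motor neuron arrays were lowest. On both other Wwtr1 probe sets the motor neuron arrays overlapped the ES arrays. Wwtr1 rose by 1.25 in Cdx2 and FGF cultures over motor neuron cultures (SE 0.14, adjusted p = 0.000119). Its other probe sets gave larger rises, 2.3 (adjusted p = 0.000165) and 2.06 (adjusted p = 0.0109).

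The TEAD genes did not share one pattern. Tead1 read 11.34, 11.22 and 11.33 with Cdx2 and FGF, against 9.42, 9.83 and 10 for motor neuron cultures and 10.58, 10.77 and 10.63 for ES cells. On this probe set the groups did not overlap, with the motor neuron arrays lowest and the Cdx2 and FGF arrays highest. On the second Tead1 probe set the Cdx2 and FGF arrays (mean 10.63) overlapped the ES arrays (mean 10.87). Tead1 rose by 1.55 over motor neuron cultures (SE 0.16, 95% interval 1.18 to 1.91, adjusted p = 9.25e-05), and by 1.31 on its second probe set (adjusted p = 0.00391).

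Tead2, a TEAD gene expressed early in the mouse embryo, read 12.69, 12.73 and 12.63 with Cdx2 and FGF, against 12.35, 12.41 and 12.42 for motor neuron cultures and 10.96, 10.88 and 10.73 for ES cells. Both day 5 groups were above ES cells, and no groups overlapped. The difference between the day 5 groups was 0.29 (SE 0.1, 95% interval 0.08 to 0.5, adjusted p = 0.0435), which was not called. This interval lies below that of Tead1; the difference between the 2 genes' responses was not itself tested.

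Tead4, the TEAD gene that the mouse trophectoderm needs, was near or under the detection limit. It read 4.01, 3.91 and 3.18 with Cdx2 and FGF, against 2.25, 2.38 and 2.34 for motor neuron cultures and 2.34, 4.89 and 2.34 for ES cells. Only 1 Cdx2 and FGF array and 1 ES array passed 4, and a second probe set read 2.17 to 2.29 on all 9 arrays. Without the filter on low values the difference between the day 5 groups was 1.38 (adjusted p = 0.28). The raised Cdx2 of the induced cultures thus stood beside Tead4 levels at the limit of detection. Tead3, the remaining TEAD gene, read between 2.22 and 2.69 on all arrays.

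Ccn1 and Ccn2 encode secreted matricellular proteins and are the most used readouts of YAP and TAZ activity. Ccn1 read 11.2, 10.54 and 10.77 with Cdx2 and FGF, against 4.15, 4.56 and 4.96 for motor neuron cultures and 8.67, 12.44 and 12.16 for ES cells. The motor neuron arrays were lowest by a wide margin, and the ES arrays overlapped the Cdx2 and FGF arrays. This probe set is of a class (x_at) that can also bind other transcripts. Ccn1 rose by 6.28 over motor neuron cultures (SE 0.84, 95% interval 4.4 to 8.17, adjusted p = 0.000405). Its 3 other probe sets gave rises of 6.49, 5.37 and 5.52, with adjusted p from 1.12e-05 to 2.77e-05. All 3 lay under 4 on every motor neuron array, so their folds are lower bounds, at least 67.3-fold, 15.9-fold and 15-fold with values under 4 raised to 4. The first of them had the single value 3.58 on all 3 motor neuron arrays, as 20095 probe sets had 1 shared value there (within 1e-06).

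Ccn2 read 10.75, 10.59 and 10.66 with Cdx2 and FGF, against 5.6, 7.92 and 7.66 for motor neuron cultures and 10.97, 13.12 and 13 for ES cells. No groups overlapped, and the first motor neuron array was lower than the others of its group. Ccn2 rose by 3.61 over motor neuron cultures (SE 0.68, 95% interval 2.08 to 5.14, adjusted p = 0.00311). Without motor neuron replicate 1 the difference was 2.88 (adjusted p = 0.00926).

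Ankrd1 encodes an ankyrin repeat protein of muscle and endothelium and is a further standard YAP target. It read 2.17 on every Cdx2 and FGF array and on every motor neuron array, against 2.17, 8.3 and 8.02 on the ES arrays. A second probe set read 2.17 or 2.18 on all 9 arrays. Ankrd1 was therefore not detected in the cultures in which Ccn1 and Ccn2 rose.

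Amotl1 and Amotl2 encode scaffold proteins of cell junctions that bind YAP, and Amotl2 is also a YAP target. Amotl1 read 11.19, 11.17 and 11.2 with Cdx2 and FGF, against 10.4, 10.29 and 10.72 for motor neuron cultures and 7.38, 9.04 and 7.08 for ES cells. The order was the same on all 3 probe sets, with no overlap between groups. The differences between the day 5 groups were 0.71 (adjusted p = 0.253), 0.91 (adjusted p = 0.0445) and 0.83 (adjusted p = 0.00405), none of which reached 1. All 3 groups share the spread used in the fit. On the representing probe set the SD was 1.06 in ES cells, against 0.0158 with Cdx2 and FGF and 0.224 in motor neuron cultures. Fitted on the 6 day 5 arrays alone, its difference of 0.71 had adjusted p = 0.00508.

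Amotl2 read 10.52, 10.28 and 10.41 with Cdx2 and FGF, against 9.94, 9.72 and 10.04 for motor neuron cultures and 10.19, 10.87 and 11.63 for ES cells. The day 5 groups did not overlap each other. Their difference was 0.5, with a 95% interval of -0.18 to 1.19 and adjusted p = 0.254. The SD that enters this shared spread was 0.721 in ES cells, against 0.119 with Cdx2 and FGF and 0.165 in motor neuron cultures. Fitted on the 6 day 5 arrays alone, the same difference had adjusted p = 0.0135, still under the size for a call.

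Fitted probe set by probe set, 10 of 17 tested member probe sets were called higher, and 0 lower, with Cdx2 and FGF, where 11.1% of all 19554 tested probe sets were called higher, 8.79% lower and 19.9% either way. The 17 had all 3 Cdx2 and FGF arrays above all 3 motor neuron arrays, as did 34.5% of all tested probe sets, with 27.3% wholly below. Probe sets of 1 gene share their target, and 4 of the 10 called are those of Ccn1. Of these 4, 3 were under 4 on every motor neuron array and could only come out higher. Both probe set counts are therefore a description.

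**Figure D2:**
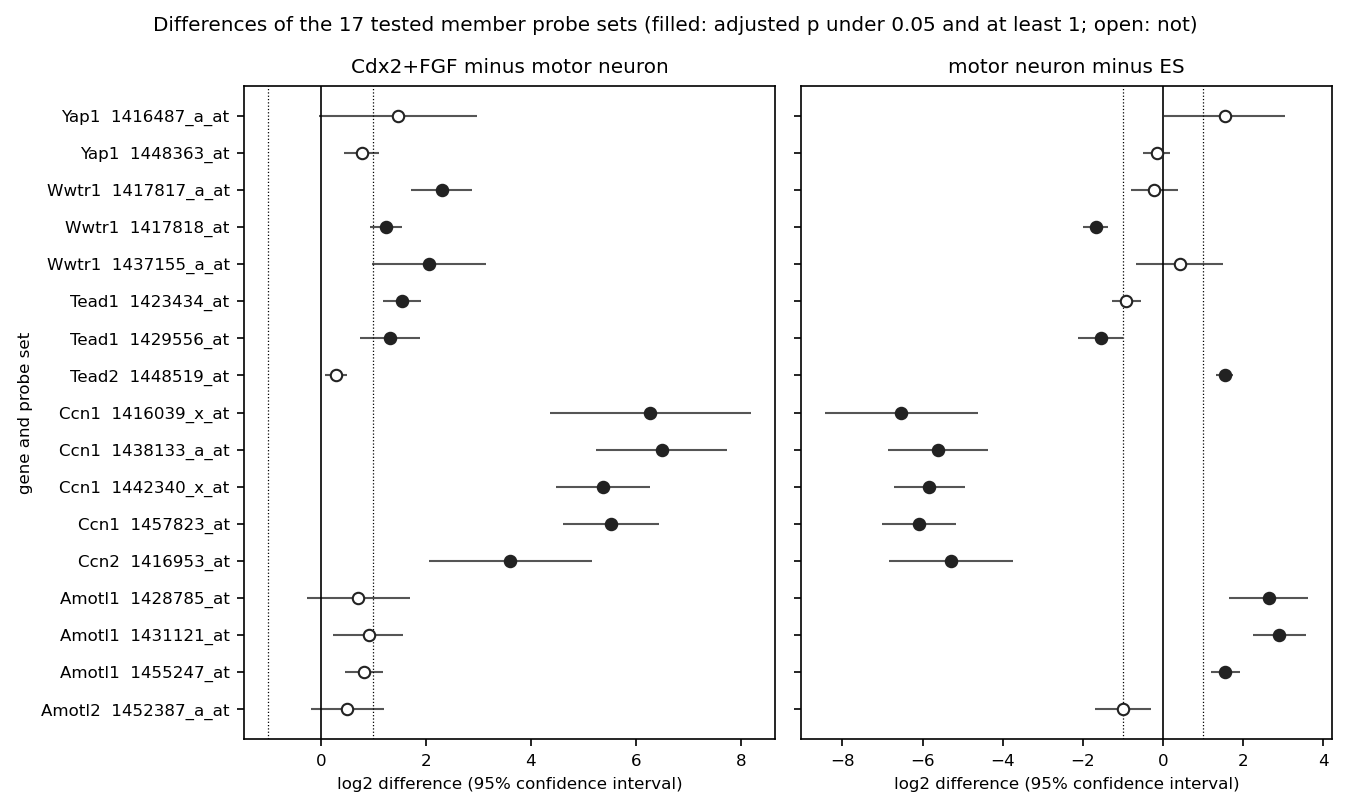
Log2 difference with its 95% confidence interval (horizontal axis) for each of the 17 tested member probe sets (vertical axis), for Cdx2 and FGF minus motor neuron cultures on the left and motor neuron cultures minus ES cells on the right; filled points were called, open points were not, and dotted lines mark a difference of 1. On the left every point lies above 0, from 0.29 for Tead2 to 6.49 for a Ccn1 probe set, while on the right the Wwtr1 and Yap1 probe sets lie on both sides of 0.

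Markers of other cell types and of contractile cells moved with these rises. The log2 of the summed fibroblast list was 10.49 to 10.77 with Cdx2 and FGF, against 6.1 to 6.44 for motor neuron cultures. On the Cdx2 and FGF arrays 6 of its 12 genes, Pdgfrb, Col1a1, Col1a2, Col3a1, Twist2 and Pdgfra, were over 4 on all 3 arrays, while Col6a3, Thy1, Dcn, Lum, Postn and Prrx1 were under 4 on all 3. On the motor neuron arrays 11 of the 12 were under 4 throughout. Of 7 tested genes 5 rose and 0 fell, where 11.2% of all tested genes rose and 8.61% fell. All 5 were under 4 on every motor neuron array and could only come out higher, so this count is a description. The mesenchymal factor gene Twist2 rose at least 44.5-fold, the collagen genes Col3a1 and Col1a1 at least 15.5-fold and 8.6-fold, and the PDGF receptor gene Pdgfrb at least 11.7-fold. These genes passed the filter on low values through the groups in which they were high. The summed mesoderm list was 11.52 to 11.84 with Cdx2 and FGF, against 7.62 to 8.07 for motor neuron cultures, with 8 of 12 genes under 4 on all Cdx2 and FGF arrays. Of its 5 tested genes 3 rose and 1, Gata6, fell, where 11.2% of all tested genes rose and 8.61% fell. Meox1 rose at least 123-fold, Foxc1 at least 33.3-fold and Foxc2 at least 26.7-fold. Meox1 and Foxc1 were under 4 on all motor neuron and ES arrays and passed the filter through their levels with Cdx2 and FGF alone. No other direction was possible for them. Foxc2 was under 4 on all motor neuron arrays and could only come out higher as well. Gata6 was under 4 on all Cdx2 and FGF arrays and all ES arrays. It passed the filter through the motor neuron arrays alone and could only come out lower. The mesoderm count is therefore a description. The part of these cell types in the Ccn1, Ccn2, Wwtr1 and Tead1 differences was not tested.

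Genes of the actin cytoskeleton, many of them targets of SRF, rose as well. Of 14 listed genes 12 were tested, 10 were called higher and 0 lower, against 11.2% and 8.61% of all tested genes, with a median difference of 2.94 (2.8 with values under 4 raised to 4). Among those called, Cnn1 was under 4 on all motor neuron arrays and could only come out higher. Acta2, the smooth muscle actin gene, read 13.3, 13.43 and 13.39 with Cdx2 and FGF, against 3.24, 2.65 and 5.08 for motor neuron cultures. Tagln, the transgelin gene of smooth muscle, read 12.88, 12.84 and 12.68 with Cdx2 and FGF, against 2.25, 3.11 and 5.3 for motor neuron cultures. The groups did not overlap for either gene. Myl9, a myosin light chain gene, read 13.34, 13.4 and 13.08 with Cdx2 and FGF, against 3.11, 4.44 and 8.17 for motor neuron cultures. The summed list was 16.35 to 16.44 with Cdx2 and FGF, against 13.63 to 13.98 for motor neuron cultures. Ccn1 and Ccn2 are known to answer to SRF as well as to YAP, and the arrays do not separate the inputs.

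Trophoblast markers were looked at because TEAD4 and Cdx2 act there. Of 12 genes 6 were tested, and 3 were higher in Cdx2 and FGF cultures than in motor neuron cultures: Cdx2 itself, the keratin gene Krt18 (by 2.91) and Gata3 (by 3.75, at least 3.78-fold). Called lower were 0 of the 6, and over all tested genes 11.2% were called higher and 8.61% lower. Tfap2c went the other way, by -1 (adjusted p = 0.0559), with its Cdx2 and FGF arrays all below its motor neuron arrays. Krt8 differed by 2.56 (adjusted p = 0.0824), and neither of these genes was called. Cdx2 and Gata3 were under 4 on all motor neuron arrays and could only come out higher. Eomes, Elf5, Hand1, Ascl2, Esx1, Krt7 and Tpbpa were under 4 on all Cdx2 and FGF arrays. The neuron list moved the other way, with 9 of 10 genes called lower, where 8.61% of all tested genes were. Among the 9 were Dcx (-7.14), Snap25 (-4.19), Stmn2 (-4.12) and Elavl3 (-4.1).

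**Figure D3:**
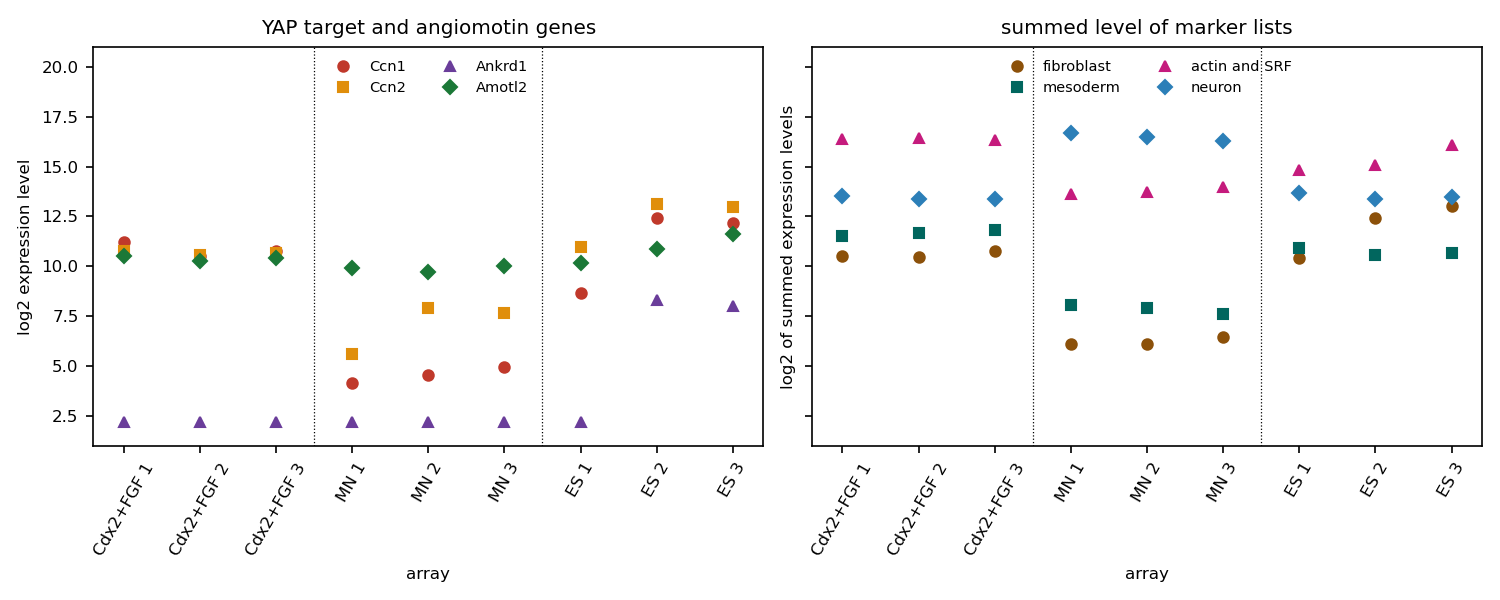
Log2 expression level of Ccn1, Ccn2, Ankrd1 and Amotl2 (left) and log2 of the summed levels of 4 marker lists (right) on each of the 9 arrays, in the order Cdx2 and FGF, motor neuron (MN) and ES, with dotted lines between groups. The fibroblast list is at 6.1 to 6.44 where Ccn1 is lowest, and among ES arrays the first is lowest for Ccn1, Ccn2, Ankrd1, Amotl2 and the fibroblast list.

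The second comparison was that of motor neuron cultures with ES cells. Ccn1 fell 92.4-fold and Ccn2 39.4-fold, Wwtr1 fell 3.2-fold on its representing probe set, and Tead2 and Amotl1 rose 2.9-fold and 6.24-fold. Of 8 tested members 2 were called higher and 3 lower, where 25.9% and 30.7% of all tested genes were. With 56.6% of all genes called in one direction or the other, 5 of 8 is near the background. The groups did not overlap for 7 of 8 members, 2 higher and 5 lower, as for 34.5% and 39.4% of all tested genes. Of the 17 probe sets 4 were called higher and 7 lower, where 32.7% and 27.2% of all were (59.9% either way), and 4 were wholly higher and 9 wholly lower, where 40.3% and 34.7% were. Among the 7, 3 Ccn1 probe sets were under 4 on all motor neuron arrays and could only come out lower. Among the 4 called higher, an Amotl1 probe set was under 4 on all ES arrays and could only come out higher. This comparison shares the motor neuron arrays with the first, so a low motor neuron value enters both with opposite signs.

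Tead2 rose by 1.54 (SE 0.1, adjusted p = 4.48e-07). Tead1 differed by -0.91 on its representing probe set (95% interval -1.28 to -0.54, adjusted p = 0.000655), just under the size for a call, and fell by 1.55 on the other (adjusted p = 0.000351). Without motor neuron replicate 3 the representing probe set was called as well (-1.04). Yap1 differed by -0.15 (95% interval -0.48 to 0.17, adjusted p = 0.359) on the first probe set and by 1.54 (95% interval 0.04 to 3.04, adjusted p = 0.0603) on the second. Wwtr1 fell by 1.68 (SE 0.14, adjusted p = 2.93e-06), while its other probe sets gave -0.21 (adjusted p = 0.473) and 0.42 (adjusted p = 0.45). The mean of the 3 Wwtr1 probe sets differed by -0.49 (adjusted p = 0.104), which ended the call. Disagreements of this kind stand beside the 3′ to 5′ difference of the ES arrays given above, whose part in them was not tested.

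Amotl1 rose by 2.64 (SE 0.43, adjusted p = 0.000343), and its other probe sets rose by 2.91 and 1.56. The probe set with 2.91 lay under 4 on all ES arrays and held the single value 5.76 on the 3 motor neuron arrays, a rise of at least 3.39-fold. Amotl2 differed by -1 after rounding (95% interval -1.69 to -0.31, adjusted p = 0.0144), which fell just short of the size for a call. Amotl2 was called without ES replicate 1 (-1.35), ES replicate 2 (-1.01), motor neuron replicate 1 (-1.02) or motor neuron replicate 3 (-1.07).

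Ccn1 fell by 6.53 in motor neuron cultures (SE 0.84, adjusted p = 6.84e-05), and its other probe sets differed by -5.61, -5.83 and -6.09, falls of at least 36.4-fold, 21.8-fold and 22.2-fold. Ccn2 fell by 5.3 (SE 0.68, adjusted p = 6.72e-05). The first ES array was the lowest of its group for Ccn1 (8.67 against 12.44 and 12.16), Ccn2 (10.97 against 13.12 and 13), Ankrd1 (2.17 against 8.3 and 8.02) and Amotl2 (10.19 against 10.87 and 11.63). For Ankrd1 the difference fitted without the filter was -3.99 (adjusted p = 0.0813). The summed fibroblast list was likewise lowest there, at 10.43 against 12.4 and 13.04, and Lum alone of its 12 genes was under 4 on all ES arrays. The ES cells had been kept on a fibroblast layer; the part of fibroblast RNA in these levels was not tested. The Ccn1 difference was -7.74 without ES replicate 1, -5.85 without ES replicate 2 and -5.99 without ES replicate 3. That of Ccn2 was -6 without ES replicate 1, and leaving out motor neuron replicate 1 gave -4.57. For Amotl1 it was 3.24 without ES replicate 2, the array on which that gene was highest.

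Cdx2 and FGF cultures were compared with ES cells as well, a comparison that shares its arrays with both others. Tead2 rose by 1.83 (SE 0.1, adjusted p = 1.88e-07) and Amotl1 by 3.35 (SE 0.43, adjusted p = 7.95e-05, or 3.95 without ES replicate 2), and Ccn2 fell by 1.69 (SE 0.68, adjusted p = 0.0473). These are 2 of 8 called higher and 1 lower, where 25.4% and 27.2% of all tested genes were (52.6% either way). Arrays were wholly higher for 4 members and wholly lower for 2, as for 36.3% and 37.1% of genes. Among the 17 probe sets 7 were called higher and 1 lower, against 32.2% and 23.9% of all (56.1% either way), and 9 were wholly higher and 2 wholly lower, against 41.9% and 32.1%. The 7 include an Amotl1 probe set that lay under 4 on all ES arrays and could only come out higher. The Ccn2 call ended under 5 of 12 other settings and 6 of 9 omissions of an array, among them those of ES replicate 2 (-1.31) and ES replicate 3 (-1.38), and stood at -2.39 without ES replicate 1. For Ccn1 the difference was -0.25, with a 95% interval of -2.13 to 1.64 and adjusted p = 0.809. The interval is wide and does not show that the groups are alike. Without ES replicate 1, Ccn1 was called lower in Cdx2 and FGF cultures (-1.46, adjusted p = 0.00227), and it differed by 0.43 and 0.29 without ES replicates 2 and 3. The representing probe set of Wwtr1 differed by -0.43 (adjusted p = 0.0181), while its 2 other probe sets rose by 2.09 and 2.47. Yap1 differed by 0.62 (adjusted p = 0.00378) on its representing probe set and rose by 3.01 on the second (adjusted p = 0.0027). Tead1 differed by 0.63 (adjusted p = 0.00619) and, on its second probe set, by -0.24 (adjusted p = 0.406). Amotl2 differed by -0.49 (95% interval -1.18 to 0.2, adjusted p = 0.176).

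Other genes of the pathway came from a list of 31 kinases, adaptors and regulators, with 29 on the array and 27 tested. Between Cdx2 and FGF and motor neuron cultures 7 rose and 2 fell, where 11.2% and 8.61% of all tested genes did, and the median difference was 0. Of the 2 that fell, Fat4 was over 4 on the motor neuron arrays alone and could only come out lower. Ptpn14, a phosphatase gene whose product binds YAP and is itself a YAP target, rose by 4.48 (22.3-fold, adjusted p = 0.000268). It read 10.58, 10.52 and 10.38 with Cdx2 and FGF, against 4.44, 6.58 and 7.04 for motor neuron cultures and 10.11, 10.19 and 10.57 for ES cells. The motor neuron arrays lay below the others, and the Cdx2 and FGF arrays overlapped the ES arrays. Wtip, an LIM protein gene of the Ajuba family, whose members bind LATS kinases, rose by 2.98 (adjusted p = 6.84e-05). Frmd6, which encodes a FERM protein upstream of the kinases, rose by 2.78 (adjusted p = 0.000265). Taok3, of the TAO kinases that act on MST kinases, fell by 1.86 (adjusted p = 0.0368).

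Between motor neuron cultures and ES cells, 9 of the 27 rose and 11 fell, with a median of -0.21. Over all tested genes 25.9% rose and 30.7% fell, so the share that rose is near the background. Fat4 and Dchs1, under 4 on all ES arrays, were among the risers and could only come out higher. Vgll3 and Vgll4 encode cofactors that bind TEAD factors, and VGLL4 opposes YAP. Vgll3 read 2.17 on every Cdx2 and FGF array and every motor neuron array, against 8.58, 10.14 and 10.84 on the ES arrays, a fall of at least 57.7-fold (adjusted p = 4.63e-07). It was tested only because of the ES arrays and could only come out lower. Vgll4 read 10.03, 9.98 and 9.69 with Cdx2 and FGF, against 9.38, 9.74 and 9.55 for motor neuron cultures and 3.23, 5.04 and 4.04 for ES cells, a rise by 5.45 in motor neuron cultures over ES cells (adjusted p = 1.46e-06). Taok3 rose by 4.71 and Ptpn14 fell by 4.27 in that comparison.

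A list of 18 further YAP and TAZ target genes known from human cancers had 14 tested members. In Cdx2 and FGF cultures 5 rose and 1 fell relative to motor neuron cultures, where 11.2% and 8.61% of all tested genes did, with a median of 0.44. Tgfb2, a TGF-beta ligand gene, rose by 6.36, with 11.29, 11.25 and 10.99 on the Cdx2 and FGF arrays against 4.04, 5.61 and 4.81 on the motor neuron arrays (adjusted p = 6.83e-05). Igfbp3 rose by 2.67 (adjusted p = 0.00164). The receptor tyrosine kinase gene Axl rose at least 4.88-fold (adjusted p = 0.0155), but lay under 4 on all motor neuron arrays and could only come out higher. Ptpn14 belongs to this list too. Between motor neuron cultures and ES cells 5 rose and 8 fell, with a median of -2.41, where 25.9% of all tested genes rose, 30.7% fell and 56.6% did either. Axl was among the 8 and could only come out lower there. Dock5 fell by 4.04 there and differed by 0.08 between the day 5 groups (adjusted p = 0.89), and Fjx1 rose by 6.85 in motor neuron cultures, so the list did not move as one.

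**Figure D4:**
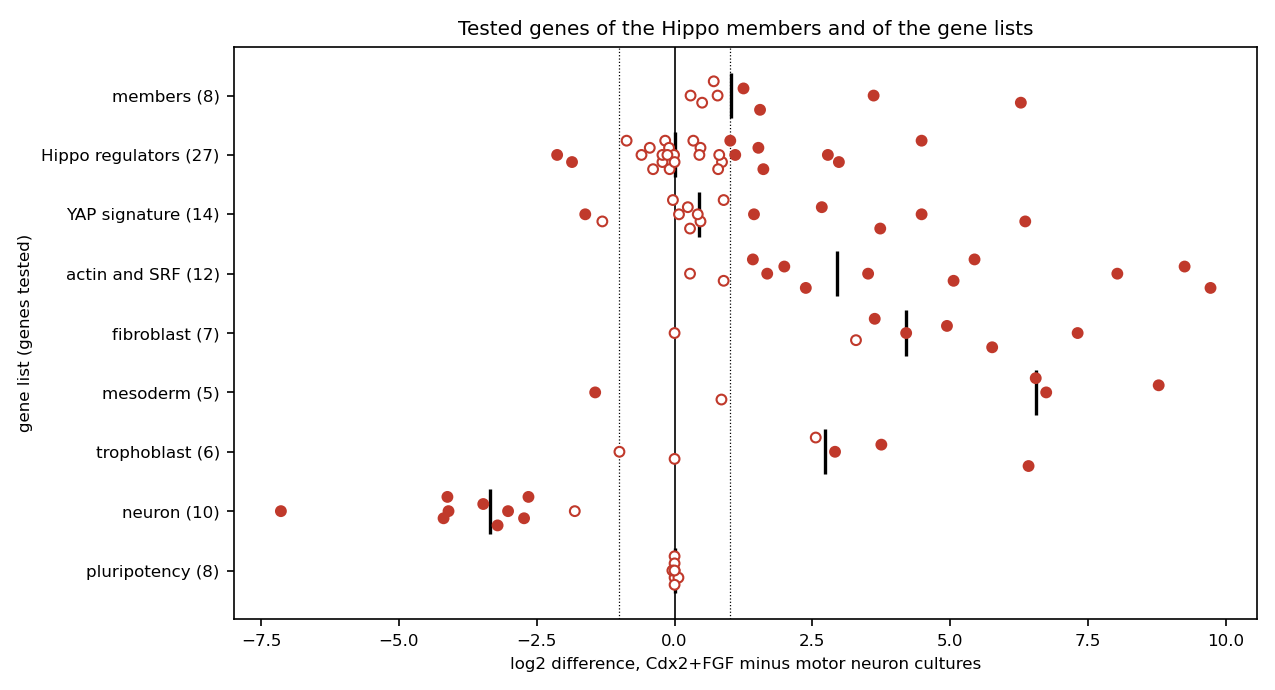
Log2 difference between Cdx2 and FGF and motor neuron cultures (horizontal axis) for each tested gene of the Hippo members and of 8 gene lists (rows, with the number tested); filled points were called, open points were not, thick bars are medians and dotted lines mark a difference of 1. The medians run from -3.34 for neuron markers through 0 for Hippo regulators and 1.02 for the members to 6.55 for mesoderm markers (4.74 with values under 4 raised to 4). Of the 5 tested mesoderm genes, Meox1, Foxc1 and Foxc2 could only come out higher and Gata6 only lower.

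Among named tested genes, the profiles closest to those of Yap1 and Ccn1 were found by the root mean square distance between log2 values over the 9 arrays, each gene centred on its own mean. For Yap1 they were Ccnb2, a mitotic cyclin gene (distance 0.0621), Cand1 (0.0939) and Nup188, a nuclear pore gene (0.103). Ccnb2 averaged 12.78 in Cdx2 and FGF cultures, 12.05 in motor neuron cultures and 12.27 in ES cells. For Ccn1 they were the annexin gene Anxa3 (distance 0.575), the small heat shock protein gene Cryab (0.629) and the hyaluronan receptor gene Cd44 (0.647). Cd44 averaged 8.67 in Cdx2 and FGF cultures, 2.23 in motor neuron cultures and 8.26 in ES cells, where the first array read 4.66 against 10.66 and 9.45. The 9 arrays stand for only 3 conditions, and this likeness is a description of these arrays.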

How the data were processed

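RNA of 9 samples was amplified with a NuGEN Ovation kit, per the labels' protocols, and measured on Affymetrix mouse arrays. The authors deposited log2 expression values per probe set. Per the submitters' processing notes the tools were GCRMA and limma, with no version; the values themselves showed a log2 scale. For arrays, their number limits the precision. Gene symbols came from the platform annotation: 34958 probe sets named 1 gene, 932 several and 9211 none, and only the first were used.

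The values were fitted without further normalization in limma 3.58.1 (R 4.3.3; lmFit on 3 group means, eBayes with an intensity trend), with 6 residual degrees of freedom. The 3 groups shared the same estimate of the spread, so the ES arrays enter the p-values and intervals of the day 5 comparison. Benjamini-Hochberg adjustment ran over all 10912 genes, or 19554 probe sets, tested. The code was tested on simulated data. Folds against a group under 4 on all arrays are lower bounds, computed with values under 4 raised to 4. Same-numbered arrays were not paired, as their deviations from the group means correlated at -0.03 to 0.08.

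The members, gene lists and tests were chosen with earlier results of these data known. Named from each list were up to 4 called genes whose groups did not overlap, in each of the first 2 comparisons, ranked by the size of the difference after values under 4 were raised to 4; for the marker and actin lists only some of these are printed. The alternatives tried were other normalization, filters, variance priors, probe set rules, array weights, a replicate block, and each array left out.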

Additional observations from a re-analysis of the deposited data

How the results depend on the processing

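Between Cdx2 and FGF and motor neuron cultures, the direction and the side of the threshold of 8 of 8 tested members were kept under all 21 settings, and the number called was 4 under each gene-level setting. The same held for 4 of 8 members in each comparison with ES cells. Counting each probe set by itself gave 10 member calls between the day 5 groups, 11 between motor neuron cultures and ES cells and 8 for Cdx2 and FGF against ES, where the gene-level counts were 4, 5 and 3; over the whole table it gave 3883, 11714 and 10967 calls, against 2159, 6172 and 5745, since more features were tested. With arrays left out in turn, the member counts were 4 to 4, 5 to 7 and 2 to 4. Over all tested genes 1664 to 2294, 5565 to 6116 and 5135 to 5693 were called under these omissions.

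Directions that turned all belonged to comparisons with ES cells. Between motor neuron cultures and ES cells, Yap1 was at 0.01 with median centring of each array and 0.69 with the mean of its probe sets. For Cdx2 and FGF against ES, Wwtr1 was at 1.38 with the mean of its probe sets, and Ccn1 was at 0.89 without x_at and s_at probe sets, 0.36 with array weights, and -1.46 to 0.43 with arrays left out. The cause was not tested. Between motor neuron cultures and ES cells the median of all genes was 0.09 after such centring, against -0.076 as deposited, so that differences of Yap1's size there depend on the scaling. With the replicate number as a block, the member calls were 4, 5 and 3, and 2137, 6171 and 5757 genes were called in the same order; it changed no call of a member.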

Other observations

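The core kinases and their partners were chosen for mention after their values were seen. Between Cdx2 and FGF and motor neuron cultures none of Stk4, Sav1, Lats1, Lats2, Mob1a, Mob1b and Nf2 was called, with differences of -0.22, 0.86, -0.17, 0.47, 0.45, -0.6 and -0.87. Calls in either direction covered only 19.8% of all tested genes there. Stk4 encodes the MST1 kinase, Sav1 its scaffold, Lats1 and Lats2 the kinases that phosphorylate YAP, Mob1a and Mob1b their activators, and Nf2 the tumour suppressor merlin. The differences of Sav1, Mob1a and Mob1b had adjusted p of 0.00289, 0.0306 and 0.0253 but were under 1. Between motor neuron cultures and ES cells Lats1 (by 2.1), Lats2 (by 1.86) and Nf2 (by 2.76) rose, while Stk4 (by 1.25), Sav1 (by 1.67) and Mob1b (by 1.15) were lower. Calls in either direction covered 56.6% of all tested genes in that comparison. Lats1 read 9.88, 10.11 and 9.97 on the motor neuron arrays, against 6.24, 8.54 and 8.87 on the ES arrays, where the first was again the lowest.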
